A study of Mus musculus with 20 samples.

Results

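The Kupffer cell marker genes of this liver study were the 10 genes Vsig4, Clec4f, Cd5l, Folr2, Lyz2, C1qa, C1qb, C1qc, Marco and Fcna. They were chosen by name, as the probe sets that carry these symbols in the platform annotation. Each symbol had 1 probe set, so they made up 10 of the 22206 probe sets and 10 of the 19505 gene symbols on the arrays. Whole liver was measured in 20 mice, with 1 Affymetrix array per liver and 5 mice, labelled as biological replicates, in each of 4 groups. Fasted Mcl1(L-/-) mice and fed Mcl1(L-/-) mice had Mcl1 deleted in the liver, and fasted WT mice and fed WT mice were the wild type. Per the labels' protocols, deletion was made in Mcl1(F/F) mice with an adeno-associated virus, AAV-LP1-Cre, in which Cre is driven by a promoter active in hepatocytes. What the WT mice were given, and the age, sex and strain of the mice, are not stated in the labels. Fasted mice were kept for 48 h without food in individual wire-bottom cages, and water was freely available. Values are log2 signals after robust multi-array averaging, a procedure that brings the arrays to a common scale. Levels are compared between samples for 1 gene at a time and not between genes.

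Kupffer cells are the resident macrophages of the liver. They sit in the sinusoids, where they clear microbes, immune complexes, aged blood cells and modified lipoproteins from portal blood. They are kept by signals of neighbouring endothelial cells, stellate cells and hepatocytes. Mcl1 encodes an anti-apoptotic member of the Bcl-2 family. Among the 10 markers, Vsig4 (CRIg, a receptor for complement C3 fragments), Clec4f (a C-type lectin), Marco (a scavenger receptor) and Folr2 (folate receptor beta) are cell surface proteins. Cd5l (also called AIM) and Lyz2 (lysozyme) are secreted. C1qa, C1qb and C1qc encode the chains of C1q, which starts the classical complement pathway, and Fcna encodes ficolin A, a recognition molecule of the lectin pathway. Vsig4, Clec4f and Cd5l are largely restricted to Kupffer cells within the mouse liver, while Lyz2 and the C1q genes are shared with other macrophages, and Lyz2 also with monocytes and neutrophils. In whole liver, fewer Kupffer cells and less RNA of these genes per cell cannot be told apart.

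The 20 array medians lay between 3.35 and 3.47 on the log2 scale, and no pair of arrays held identical values. The Mcl1 signal averaged 6.14 in fasted Mcl1(L-/-) livers, against 7.28 in fasted WT livers, and 6.09 in fed Mcl1(L-/-) livers, against 7.43 in fed WT livers, and every Mcl1(L-/-) array lay below every WT array. The first principal component of all probe sets held 34.2% of the variance. On it, fasted Mcl1(L-/-) replicate 3 (18.3) and replicate 4 (27.0) lay nearer to the fasted WT arrays (6.61 to 18.4) than the other fasted Mcl1(L-/-) arrays did (42.2 to 46.8), so results that use fasted Mcl1(L-/-) livers were also computed without those 2 arrays. By group mean the probe sets of the 10 markers lay between the 50.8 and the 91.6 percentile of all probe sets.

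All 10 markers had their lowest group mean in fasted WT livers. The highest group mean was that of fasted Mcl1(L-/-) livers for 5 markers, of fed Mcl1(L-/-) livers for 4 and of fed WT livers for 1 (Folr2). The mean of the 10 log2 signals was 5.76 ± 0.37 in fasted Mcl1(L-/-) livers, 5.96 ± 0.16 in fed Mcl1(L-/-) livers, 5.02 ± 0.23 in fasted WT livers and 5.89 ± 0.20 in fed WT livers (SD, n = 5 each). Per array it was 5.59, 5.60, 5.33, 6.16 and 6.15 in fasted Mcl1(L-/-) livers, against 5.23, 5.03, 5.03, 4.65 and 5.18 in fasted WT livers, in replicate order. These groups did not overlap. In the fed state the mean was 5.95, 6.16, 6.02, 5.74 and 5.91 in Mcl1(L-/-) livers, against 5.65, 6.20, 5.79, 5.90 and 5.91 in WT livers. Here the ranges overlapped.

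**Figure D1:**
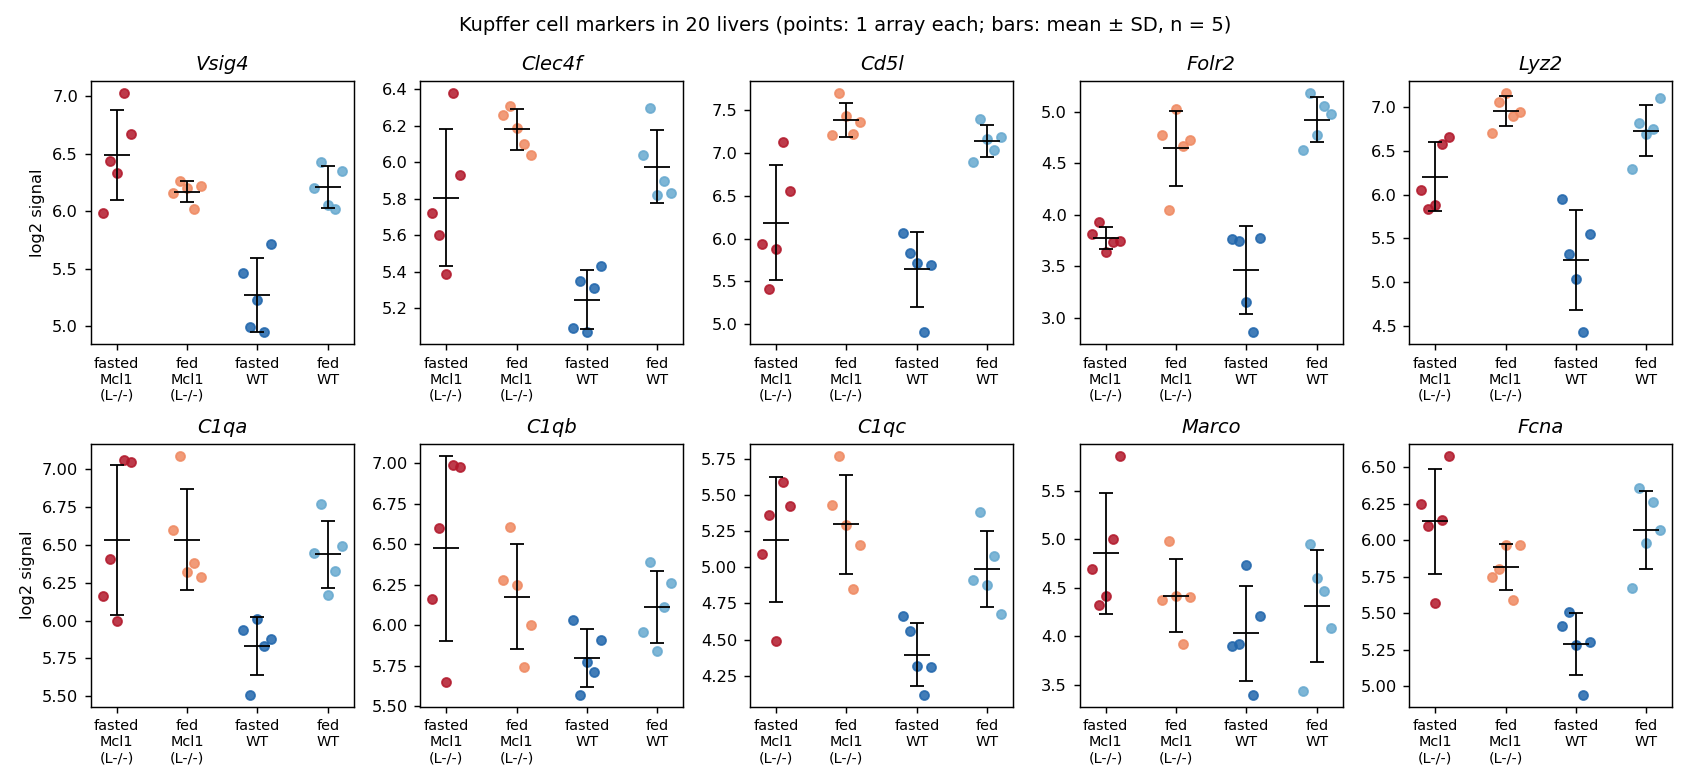
Log2 signal of each of the 10 Kupffer cell marker genes (vertical axis) in the 20 livers by group (horizontal axis). Points are single arrays and bars are group means with the SD (n = 5). The fasted WT group has the lowest mean in all 10 panels, and fasted Mcl1(L-/-) livers spread more widely than the other groups for most genes.

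Each difference was tested with limma over all 22206 probe sets, and a gene is said to have risen, fallen or changed where its Benjamini-Hochberg adjusted p was under 0.05. Fasting lowered 6 of the 10 markers in WT livers and raised 0. In that comparison 3.68% of all probe sets were called lower and 3.1% higher. In Mcl1(L-/-) livers fasting lowered 3 of the 10 and raised 0, beside 6.25% of all probe sets called lower and 8.2% called higher. In the fasted state 6 of the 10 markers were higher in Mcl1(L-/-) than in WT livers and 0 were lower, beside 3.32% of all probe sets called higher and 1.67% called lower. In the fed state 0 markers were called between the genotypes, beside 0.0225% of all probe sets called higher and 0.0135% called lower. The median log2 difference of the 10 was -0.05 for fasting in Mcl1(L-/-) livers and -0.75 for fasting in WT livers, against -0.002 and 0.015 over all probe sets. For Mcl1(L-/-) against WT it was 0.75 in the fasted state, against -0.017 over all probe sets, and 0.10 in the fed state, against -0.002. The comparisons share groups of arrays and are not independent of one another.

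Among the surface receptors, Vsig4 separated the fasted groups most widely. Its signal was 5.98, 6.44, 6.33, 7.03 and 6.67 in fasted Mcl1(L-/-) livers, against 6.16, 6.26, 6.20, 6.02 and 6.22 in fed Mcl1(L-/-) livers. In WT livers it was 5.46, 4.99, 5.23, 4.95 and 5.71 after fasting, against 6.20, 6.43, 6.05, 6.02 and 6.35 when fed. All 5 fasted WT arrays lay below all 15 others. Fasting lowered Vsig4 1.92-fold in WT livers (log2 -0.94, SE 0.161, adjusted p = 0.000435). In Mcl1(L-/-) livers the difference was 0.32 on the log2 scale (95% interval -0.01 to 0.65, adjusted p = 0.23) and was not called. The fasted Mcl1(L-/-) livers were 2.33-fold above the fasted WT livers (log2 1.22, SE 0.161, adjusted p = 0.000146).

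Clec4f fell with fasting in WT livers by a smaller factor. The Clec4f signal was 5.72, 5.60, 5.39, 6.38 and 5.93 in fasted Mcl1(L-/-) livers, against 6.26, 6.31, 6.19, 6.10 and 6.04 in fed Mcl1(L-/-) livers. It was 5.09, 5.35, 5.07, 5.31 and 5.43 in fasted WT livers, against 6.04, 6.30, 5.82, 5.90 and 5.83 in fed WT livers. The WT groups did not overlap, and in Mcl1(L-/-) livers the fasted replicate 4 lay above every fed array. The fall in WT livers was 1.66-fold (log2 -0.73, SE 0.143, adjusted p = 0.00186), and the difference of -0.38 in Mcl1(L-/-) livers was not called (adjusted p = 0.0888). Without fasted Mcl1(L-/-) replicate 4 it was -0.52 and called (adjusted p = 0.00529). Fasted Mcl1(L-/-) livers were 1.47-fold above fasted WT livers (adjusted p = 0.026), with 1 fasted Mcl1(L-/-) array inside the WT range. That call was lost without fasted Mcl1(L-/-) replicate 4 or 5 or fasted WT replicate 1 or 3, where the adjusted p was 0.0589, 0.0644, 0.0624 and 0.0618 in that order. It was also lost in the fit without moderation (adjusted p = 0.0518) and with only the groups compared (adjusted p = 0.0983).

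Folr2 fell with fasting in both genotypes. It measured 3.81, 3.93, 3.64, 3.73 and 3.74 in fasted Mcl1(L-/-) livers, against 4.77, 4.04, 5.02, 4.67 and 4.72 in fed Mcl1(L-/-) livers, and these ranges did not overlap. The WT values were 3.76, 3.74, 3.15, 2.86 and 3.77 after fasting, against 4.63, 5.18, 4.77, 5.05 and 4.98 when fed, again without overlap. All 10 fasted arrays lay under a log2 signal of 4 and all 10 fed arrays above it, so a filter that asked for a signal above 4 in 5 arrays kept Folr2 through its fed arrays. Folr2 was 1.83-fold lower after fasting in Mcl1(L-/-) livers (log2 -0.87, SE 0.177, adjusted p = 0.00106) and 2.76-fold lower in WT livers (log2 -1.46, SE 0.177, adjusted p = 5.85e-06). The fasted genotypes differed by 0.31 (95% interval -0.05 to 0.68, adjusted p = 0.372), which was not called.

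Marco had the largest SE of the 10 markers (0.286), and no comparison of it was called. Its signal was 4.69, 4.32, 4.42, 5.0 and 5.86 in fasted Mcl1(L-/-) livers, against 4.37, 4.98, 4.42, 3.92 and 4.41 in fed Mcl1(L-/-) livers. In WT livers it was 3.90, 3.92, 4.73, 3.40 and 4.21 after fasting, against 3.44, 4.95, 4.60, 4.47 and 4.09 when fed. Every pair of groups overlapped. The log2 difference between fasted Mcl1(L-/-) and fasted WT livers was 0.83 with a 95% interval of 0.24 to 1.42 (adjusted p = 0.102), so a difference of the size seen for Vsig4 lies within the interval.

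The secreted markers Cd5l and Lyz2 fell after fasting in livers of both genotypes. Cd5l, a scavenger receptor family protein that circulates with IgM, measured 5.94, 5.41, 5.88, 7.13 and 6.56 in fasted Mcl1(L-/-) livers, against 7.21, 7.70, 7.43, 7.22 and 7.36 in fed Mcl1(L-/-) livers. It measured 6.07, 5.83, 5.71, 4.91 and 5.69 in fasted WT livers, against 6.90, 7.40, 7.16, 7.03 and 7.19 in fed WT livers. Neither fasted group reached its fed group. Cd5l was 2.30-fold lower after fasting in Mcl1(L-/-) livers (log2 -1.20, SE 0.235, adjusted p = 0.000736) and 2.82-fold lower in WT livers (log2 -1.50, SE 0.235, adjusted p = 0.000166). Its fasting difference had the largest estimate of the 10 markers in each genotype. Between the fasted genotypes Cd5l differed by 0.55 (95% interval 0.06 to 1.03, adjusted p = 0.205), which was not called. Cd5l lies on chromosome 3, as does Mcl1, with 215 measured genes between them in the RefSeq gene order of GRCm38.p6.

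Lyz2 degrades bacterial cell walls and is a common marker of the myeloid lineage. Its signal was 6.05, 5.83, 5.88, 6.58 and 6.66 in fasted Mcl1(L-/-) livers, against 6.70, 7.06, 7.16, 6.90 and 6.94 in fed Mcl1(L-/-) livers. In WT livers it was 5.95, 5.32, 5.03, 4.43 and 5.55 after fasting, against 6.29, 6.82, 6.69, 6.75 and 7.10 when fed. The fasted and fed ranges did not overlap in either genotype. Lyz2 was 1.68-fold lower after fasting in Mcl1(L-/-) livers (log2 -0.75, SE 0.216, adjusted p = 0.019) and 2.78-fold lower in WT livers (log2 -1.47, SE 0.216, adjusted p = 7.59e-05). The call in Mcl1(L-/-) livers was lost without fasted Mcl1(L-/-) replicate 2 (adjusted p = 0.0629) or fed Mcl1(L-/-) replicate 3 (adjusted p = 0.0507). The fit without moderation also lost it (adjusted p = 0.0532). Fasted Mcl1(L-/-) livers held 1.93-fold more Lyz2 signal than fasted WT livers (log2 0.95, SE 0.216, adjusted p = 0.0135), with overlapping ranges. Lyz1, a nearly identical lysozyme gene, is the next measured gene on chromosome 10, and where the probes lie is not stated in the table, so signal shared between the pair cannot be told apart. Lyz1 was not called in either genotype (log2 -0.36 for fasting in Mcl1(L-/-) and -0.37 in WT livers).

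**Figure D2:**
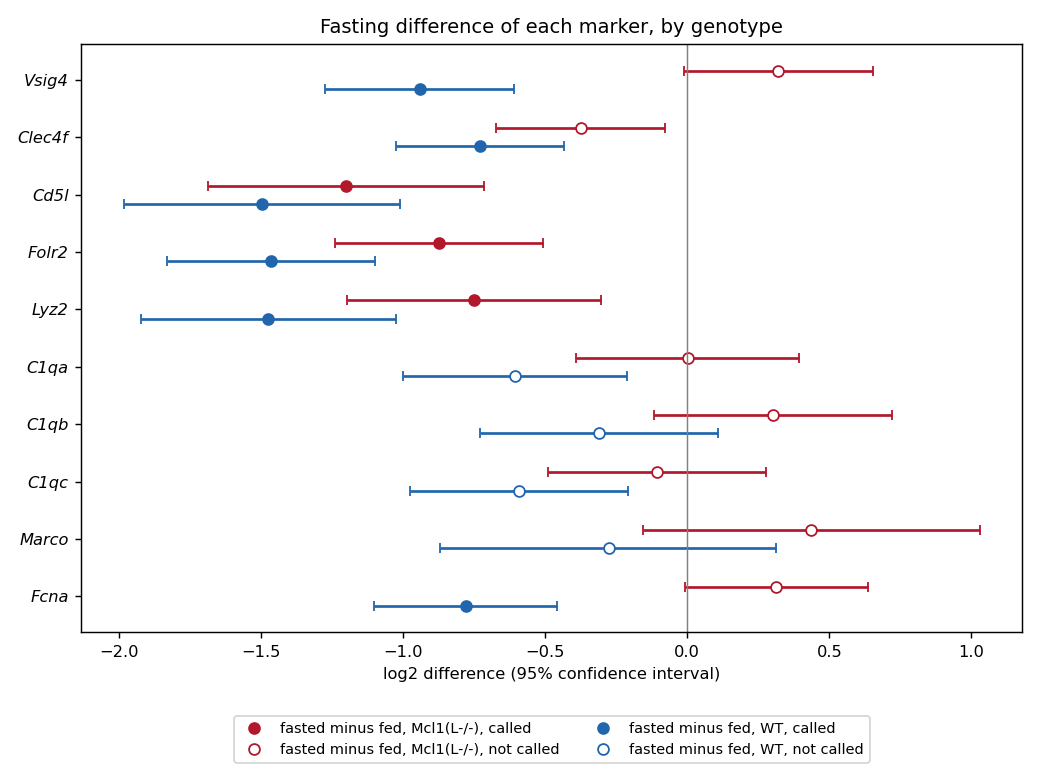
Log2 difference, fasted minus fed, of the 10 markers (rows) in Mcl1(L-/-) and in WT livers, with 95% intervals from limma, and filled points for an adjusted p under 0.05. Vsig4, Clec4f, Fcna, Cd5l, Folr2 and Lyz2 lie below 0 with a call in WT livers, and of these only Cd5l, Folr2 and Lyz2 also have a call in Mcl1(L-/-) livers.

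The C1q genes lie next to each other on chromosome 4, with 0 measured genes between neighbours. C1qa, the A chain, measured 6.16, 6.41, 6.0, 7.06 and 7.05 in fasted Mcl1(L-/-) livers, against 5.94, 5.51, 6.01, 5.83 and 5.88 in fasted WT livers. The fed livers had 6.60, 7.09, 6.32, 6.38 and 6.29 in the Mcl1(L-/-) group, against 6.45, 6.77, 6.17, 6.33 and 6.49 in the WT group. C1qa was 1.63-fold higher in fasted Mcl1(L-/-) than in fasted WT livers (log2 0.70, SE 0.190, adjusted p = 0.0331), with 1 fasted Mcl1(L-/-) array inside the WT range. That call was lost without any 1 of 7 arrays, which were fasted Mcl1(L-/-) replicates 2, 4 and 5 and fasted WT replicates 1, 2, 4 and 5 (adjusted p = 0.0515 to 0.102). It was also lost after quantile normalization (adjusted p = 0.055) and in the fit without moderation (adjusted p = 0.0809). Fitting only the groups compared lost it as well (adjusted p = 0.0905), and it held in 9 of 19 alternatives.

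C1qb, the B chain, had values of 6.16, 6.60, 5.65, 6.99 and 6.98 in fasted Mcl1(L-/-) livers, against 6.03, 5.57, 5.77, 5.71 and 5.91 in fasted WT livers. Replicate 3 of the fasted Mcl1(L-/-) group lay within the WT range and the other 4 above it. The log2 difference of 0.68 was not called (SE 0.202, adjusted p = 0.0536). Without fasted Mcl1(L-/-) replicate 3 it was 0.88 and called (adjusted p = 0.00269). The fed livers had 6.28, 6.61, 6.25, 5.74 and 6.0 in the Mcl1(L-/-) group, against 5.96, 6.39, 5.84, 6.11 and 6.26 in the WT group, and these ranges overlapped.

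C1qc, the C chain, measured 5.09, 5.36, 4.49, 5.59 and 5.42 in fasted Mcl1(L-/-) livers, against 4.66, 4.56, 4.32, 4.12 and 4.31 in fasted WT livers. It was 1.73-fold higher in the fasted Mcl1(L-/-) livers (log2 0.79, SE 0.185, adjusted p = 0.0153), with replicate 3 again inside the WT range. In fed livers it was 5.43, 5.77, 5.29, 4.85 and 5.15 in the Mcl1(L-/-) group, against 4.91, 5.38, 4.88, 5.08 and 4.68 in the WT group. For fasting in WT livers the C1qa and C1qc groups did not overlap, but neither gene passed the threshold. Their log2 differences were -0.61 (adjusted p = 0.0575) and -0.59 (adjusted p = 0.0554), and that of C1qb was -0.31 (adjusted p = 0.478). C1qc was called there without fasted WT replicate 1 (adjusted p = 0.0455) or fed WT replicate 5 (adjusted p = 0.046). For fasting in Mcl1(L-/-) livers the log2 differences of C1qa, C1qb and C1qc were 0.00, 0.30 and -0.11, and none was called (adjusted p = 0.417 to 0.998).

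Fcna, which binds sugars and acetylated residues on microbes and works with the MASP proteases, separated the fasted genotypes without overlap. It measured 6.25, 6.10, 5.57, 6.14 and 6.58 in fasted Mcl1(L-/-) livers, against 5.75, 5.80, 5.97, 5.59 and 5.97 in fed Mcl1(L-/-) livers. It measured 5.41, 5.51, 5.28, 4.94 and 5.30 in fasted WT livers, against 5.67, 6.36, 5.98, 6.26 and 6.07 in fed WT livers. Fasting lowered Fcna 1.72-fold in WT livers (log2 -0.78, SE 0.156, adjusted p = 0.00219). The difference in Mcl1(L-/-) livers was 0.31 (95% interval -0.01 to 0.64, adjusted p = 0.223). Without fasted Mcl1(L-/-) replicate 3, the lowest of its group, this difference was 0.45 and called (adjusted p = 0.0339). In the fasted state Fcna was 1.79-fold higher in Mcl1(L-/-) than in WT livers (log2 0.84, SE 0.156, adjusted p = 0.0035).

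Counted over the 10 markers, the fasted and fed WT arrays did not overlap for 8 (all but C1qb and Marco), each time with the fasted arrays lower, as for 3.81% of all probe sets. In Mcl1(L-/-) livers this held for 3 (Cd5l, Folr2 and Lyz2), and for 4.37% of all probe sets. Between the fasted genotypes the arrays did not overlap for 2 markers (Vsig4 and Fcna), with the Mcl1(L-/-) arrays higher, as for 2.54% of all probe sets. The 6 calls for fasting in WT livers held in each of the 18 alternatives run. In the fasted comparison of the genotypes, Vsig4, C1qc and Fcna were called in each of 19 alternatives, and Lyz2 in 18. For fasting in Mcl1(L-/-) livers Cd5l and Folr2 were called in all 19. Without fasted Mcl1(L-/-) replicates 3 and 4 that comparison called 5 markers instead of 3, the additional ones being Clec4f (lower, log2 -0.43) and Fcna (higher, log2 0.50).

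In the fed state the genotypes could not be told apart by these markers. None of the 10 was called, and all 10 pairs of groups overlapped. The log2 differences, Mcl1(L-/-) minus WT, ran from -0.28 (Folr2) to 0.31 (C1qc), with adjusted p between 0.881 and 0.992. All 95% intervals lay within -0.64 and 0.73. At an unadjusted p under 0.05 limma passed 1429 probe sets (6.44%) and 0 of the markers. Vsig4, the marker with the widest difference between the fasted genotypes, differed by -0.04 when fed (95% interval -0.37 to 0.29). Fed Mcl1(L-/-) replicate 2 was the highest fed Mcl1(L-/-) array for 7 markers, and fed WT replicate 2 the highest fed WT array for 9.

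**Figure D3:**
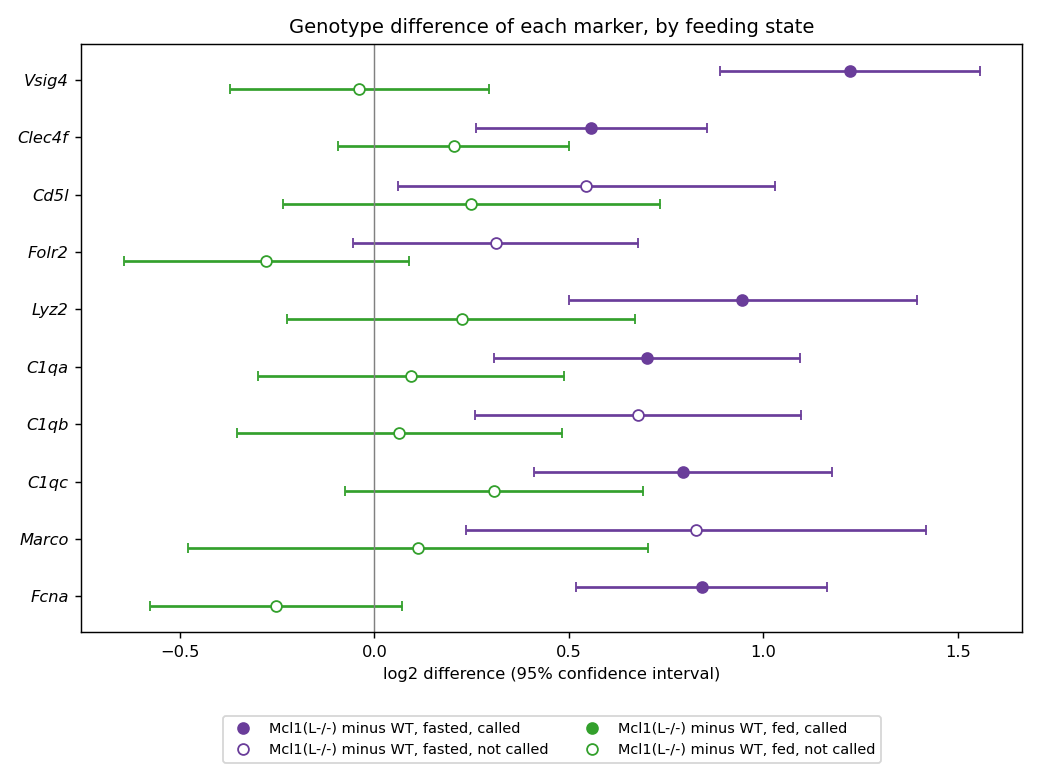
Log2 difference, Mcl1(L-/-) minus WT, of the 10 markers (rows) in fasted and in fed livers, with 95% intervals from limma, and filled points for an adjusted p under 0.05. Fasted differences lie above 0 for all 10 markers, from 0.31 (Folr2) to 1.22 (Vsig4), and 6 are called. Fed differences lie between -0.28 and 0.31 with none called.

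Whether fasting acted differently in the genotypes was tested with the interaction, the fasting difference in Mcl1(L-/-) livers minus that in WT livers. Vsig4 and Fcna passed, both with a positive value, beside 0.0811% of all probe sets called positive and 0.054% called negative. The Vsig4 interaction was 1.26 (SE 0.228, 95% interval 0.79 to 1.73, adjusted p = 0.022), and that of Fcna was 1.09 (SE 0.221, 95% interval 0.64 to 1.55, adjusted p = 0.0445). The other 8 markers were not called, with values from 0.30 (Cd5l) to 0.72 (Lyz2) and adjusted p of 0.358 to 0.807. For Cd5l the interval ran from -0.39 to 0.98. The median over the 10 was 0.61, against -0.010 over all probe sets.

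The Vsig4 interaction remained called in 24 of 28 alternatives, with adjusted p between 0.00521 and 0.0854. It was lost without fasted Mcl1(L-/-) replicate 5 (adjusted p = 0.0551), without fasted WT replicate 2 (adjusted p = 0.0501), without fed WT replicate 5 (adjusted p = 0.0526) and in the fit without moderation (adjusted p = 0.0854). That of Fcna was called in 8 of 28, with adjusted p between 0.00115 and 0.125. Leaving out any 1 array other than fasted Mcl1(L-/-) replicate 3 or 4 or fed WT replicate 1 ended the Fcna call, with adjusted p up to 0.0905. The size of the Fcna interaction stayed between 0.98 and 1.27 on the log2 scale.

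The livers of the fasted Mcl1(L-/-) group differed among themselves. Replicate 4 was the highest array of that group for 6 markers and replicate 5 for 3, while replicate 3 was the lowest for 6. The median SD of the 10 markers was 0.41 in fasted Mcl1(L-/-) livers, 0.26 in fed Mcl1(L-/-) livers, 0.27 in fasted WT livers and 0.22 in fed WT livers. The model assumes 1 spread for all groups, so its SE can be too small for fasted Mcl1(L-/-) livers. Among fasted WT livers replicate 4 was the lowest array for 7 markers.

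Across the 20 arrays the markers varied together. The 45 pairs had Pearson correlations between 0.027 and 0.931, with a median of 0.68. After each group's mean was subtracted, 44 of the 45 remained positive, with a median of 0.542. The C1q genes stayed close by this measure (0.88 for C1qa and C1qb, 0.83 for C1qb and C1qc, 0.69 for C1qa and C1qc), as did Cd5l and Lyz2 (0.81). Folr2 varied with Lyz2 (0.53) and Fcna (0.52), whereas its correlation was -0.26 with C1qa and between 0.03 and 0.24 with the other 6 markers. These correlations describe 20 arrays that share their livers and their normalization.

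**Figure D4:**
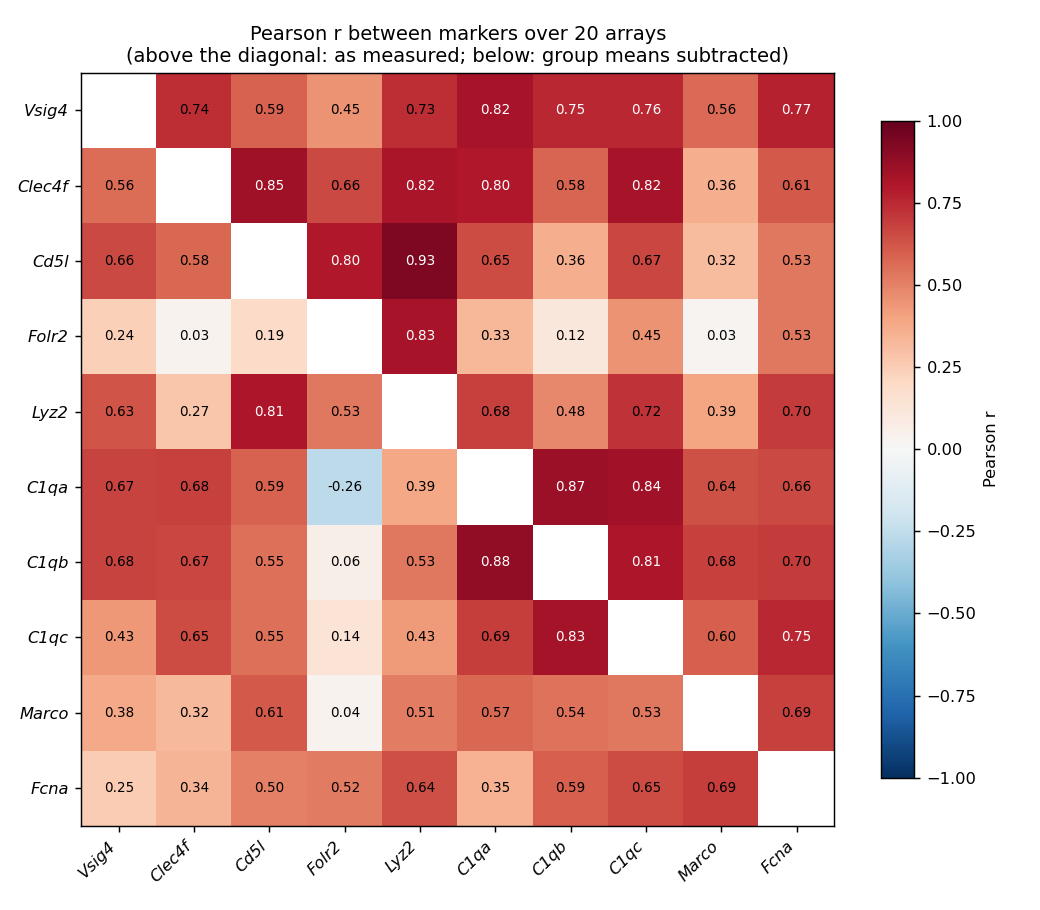
Pearson correlation of each pair of the 10 markers over the 20 arrays, printed and coloured in each cell, as measured above the diagonal and after the group means were subtracted below it. The C1q genes are close on both sides (0.69 to 0.88 after subtraction), and the lowest pair on each side includes Folr2.

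Spi1 had the pattern most like that of the markers, by its correlation with their mean z-score over the 20 arrays (Pearson 0.912, Spearman 0.847). Spi1 encodes PU.1, a transcription factor of the myeloid lineage. The next symbols were Msr1, a scavenger receptor (0.87), Nme1 (0.864), Cybb, a subunit of the phagocyte NADPH oxidase (0.853), Lgmn, a lysosomal protease (0.848), and Ctss, cathepsin S (0.846). H2-D1, Wfdc17, Cyrib and Gm4788 followed with 0.836 to 0.83. With the group means subtracted, Cyrib (0.846), Suclg1 (0.812) and Hmox1, heme oxygenase (0.797), came first, and Apba1, Msn, Ehbp1l1, Sqstm1, Dkc1, Spi1 and Uqcr10 followed with 0.786 to 0.739. The nearest single symbol was Lgmn for Vsig4 (0.895), Nme1 for Clec4f (0.903), Gstm4 for Cd5l (0.948), Sntg2 for Folr2 (0.922) and Dbi for Lyz2 (0.933). It was Ctss for C1qa (0.874), Cyrib for C1qb (0.868), Nme1 for C1qc (0.85), Hmox1 for Marco (0.764) and Gm4832 for Fcna (0.872).

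Promoter windows are shown for C1qb and C1qc, neighbours that varied together. C1qa, the gene next to C1qc, had no matching promoter and so no window. Windows are also shown for Vsig4 and Fcna, the markers with a called interaction, which were added after their values were seen. Each window runs 5′ to 3′ on the gene's strand over 300 bases, 250 before to 50 after the annotated start, from RefSeq on GRCm38.p6. All 4 genes lie on the minus strand, with windows at chr4:136886151-136886450 for C1qb, chr4:136892865-136893164 for C1qc, chrX:96293389-96293688 for Vsig4 and chr2:25627925-25628224 for Fcna. Capitals mark the letters GAGGAA or, on the other strand, TTCCTC, the core that PU.1 is known to bind.
C1qb: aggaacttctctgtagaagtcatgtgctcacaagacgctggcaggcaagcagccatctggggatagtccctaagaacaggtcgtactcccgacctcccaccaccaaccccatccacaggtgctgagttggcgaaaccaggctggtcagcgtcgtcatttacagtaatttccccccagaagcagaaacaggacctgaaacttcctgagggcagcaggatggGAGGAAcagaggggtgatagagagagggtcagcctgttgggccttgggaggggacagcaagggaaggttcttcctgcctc
C1qc: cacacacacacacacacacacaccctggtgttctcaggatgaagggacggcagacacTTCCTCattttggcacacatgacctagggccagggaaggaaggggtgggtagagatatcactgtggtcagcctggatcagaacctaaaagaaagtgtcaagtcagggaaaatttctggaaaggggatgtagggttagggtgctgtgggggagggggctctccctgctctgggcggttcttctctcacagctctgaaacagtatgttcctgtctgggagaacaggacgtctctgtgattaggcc
Vsig4: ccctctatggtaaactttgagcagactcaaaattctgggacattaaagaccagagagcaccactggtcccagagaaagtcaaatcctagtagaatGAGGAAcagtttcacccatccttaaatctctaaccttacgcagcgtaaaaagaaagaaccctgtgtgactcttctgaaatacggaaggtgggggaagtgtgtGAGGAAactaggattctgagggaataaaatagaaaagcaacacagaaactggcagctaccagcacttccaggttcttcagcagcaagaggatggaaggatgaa
Fcna: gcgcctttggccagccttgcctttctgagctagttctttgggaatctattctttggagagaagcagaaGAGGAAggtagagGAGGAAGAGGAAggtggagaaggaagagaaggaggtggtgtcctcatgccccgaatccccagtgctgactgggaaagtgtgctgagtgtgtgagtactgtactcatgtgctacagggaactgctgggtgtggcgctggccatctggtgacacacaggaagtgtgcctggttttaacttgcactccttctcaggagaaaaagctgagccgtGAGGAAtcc
The windows of C1qb and C1qc held 1 copy each, that of Vsig4 held 2 and that of Fcna 4.

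Of the 10 markers, 9 (all but C1qa) matched the promoter table, with 10 windows because Folr2 has 2 starts. GAGGAA on either strand was found in the windows of 6 of these 9 genes (C1qb, C1qc, Cd5l, Fcna, Marco and Vsig4) and in 28.3% of all 32851 windows of this length. TGCTGA, a short motif of the MAF factors, was found for 7 genes and in 19.5% of all windows. TGGGAA, the core bound by the Notch mediator RBPJ, was found for 4 and in 25.6%. The E-box CACGTG was found for 0 and in 7.15%. No overlap among these motifs was removed, and a match is a description of the letters and not a site of binding.

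Other lists place the markers among the genes of macrophages and of their neighbours. The 13 lists held 170 symbols, of which 156 were measured, and Csf1r is in 2 of them. Beside the counts below, 8.2% of all probe sets were called higher and 6.25% lower for fasting in Mcl1(L-/-) livers. For fasting in WT livers these shares were 3.1% and 3.68%, and between the fasted genotypes 3.32% and 1.67%. No list was tested as a set, and a count of 1 or 2 genes can lie near these shares. Of 14 other Kupffer cell genes, fasting in WT livers lowered 3 and raised 0, with a median of -0.31. The largest falls were those of Wfdc17 (3.12-fold, log2 -1.64, adjusted p = 4.91e-05) and Sdc3, a syndecan (2.62-fold, log2 -1.39). In Mcl1(L-/-) livers fasting lowered 2 (Wfdc17, log2 -0.94, and Hpgd, which degrades prostaglandins, log2 -0.85) and raised 1, the haemoglobin scavenger receptor Cd163 (log2 0.63, adjusted p = 0.0199). The Cd163 call was lost in 4 of 10 fits that left out 1 array, fasted Mcl1(L-/-) replicate 1 or 5 or fed Mcl1(L-/-) replicate 1 or 2 (adjusted p up to 0.0683). In the fasted state 10 of the 14 had a positive difference, Mcl1(L-/-) minus WT, and 4 a negative one (median 0.38). Slc40a1 was the most negative (log2 -0.91, adjusted p = 0.0551, not called). The log2 of the summed linear signal, in which Hpgd was the brightest gene, had a median of 10.2 in fasted Mcl1(L-/-) and 10.35 in fasted WT livers. By limma 5 of the 14 were called higher in fasted Mcl1(L-/-) than in fasted WT livers and 0 lower. They included the transcriptional regulator Id3 (log2 1.39), whose call was lost if either of replicates 1 and 4 was left out of either group (highest adjusted p 0.0684), and Hmox1 (log2 1.20), whose call needed both fasted Mcl1(L-/-) replicate 5 and fasted WT replicate 4 (highest adjusted p 0.0595 without them).

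Of 20 pan-macrophage genes, fasting in WT livers lowered 8 and raised 0 (median -0.41), and fasting in Mcl1(L-/-) livers lowered 5 and raised 1 (median -0.19). In WT livers the largest falls were those of Ctsc, cathepsin C (log2 -1.08), and Spi1 (log2 -1.01, adjusted p = 0.000554). Those in Mcl1(L-/-) livers were of Mpeg1, perforin-2 (log2 -0.98), and Aif1, an actin-binding macrophage protein (log2 -0.88), while the endotoxin co-receptor Cd14 rose (log2 0.99, adjusted p = 0.0153). The Cd14 call was lost without fasted or without fed Mcl1(L-/-) replicate 1 (adjusted p = 0.0556 and 0.0542). In the fasted state 6 were higher in Mcl1(L-/-) than in WT livers and 0 lower (median 0.42), led by Spi1 (log2 0.78) and Ctss (log2 0.72). Spi1 averaged 6.58 in fasted Mcl1(L-/-) livers, 6.76 in fed Mcl1(L-/-) livers, 5.80 in fasted WT livers and 6.80 in fed WT livers.

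Among 14 niche signals and receptors of Kupffer cells, fasting in WT livers lowered 2, Csf1, the growth factor that macrophages depend on (2.32-fold, log2 -1.21, adjusted p = 2.33e-05), and Tgfb1 (log2 -0.56). The Tgfb1 call was lost without fasted WT replicate 3 (adjusted p = 0.0547). In Mcl1(L-/-) livers fasting lowered 0 and raised 2, Eng, a co-receptor for TGF-beta family ligands (log2 0.47), and the Notch ligand Dll4 (log2 0.58). Dll4 lost its call in 8 of 10 fits that left out 1 array, all but those without fasted Mcl1(L-/-) replicate 3 or fed Mcl1(L-/-) replicate 3 (adjusted p up to 0.113). In the fasted state 3 were higher in Mcl1(L-/-) livers, with Bmp10 (log2 0.91) and Tgfbr2 (log2 0.73) the largest. Tgfbr2 lost its call when replicate 2 of either group, or Mcl1(L-/-) replicate 1 or 5, was left out (highest adjusted p 0.0641). The 13 C1 and lectin pathway partners include many genes made by hepatocytes. Fasting lowered 7 of the 13 in Mcl1(L-/-) livers and 7 in WT livers, and the other 6 were not called in each case. The medians were -0.50 in Mcl1(L-/-) and -0.44 in WT livers. Those that fell included the mannose-binding lectin genes Mbl2 (log2 -1.26 in Mcl1(L-/-) and -0.57 in WT livers) and Mbl1 (log2 -1.18 in Mcl1(L-/-) and -1.03 in WT livers). Colec10 fell in WT livers (log2 -0.64). In the fasted state 2 partners were lower in Mcl1(L-/-) livers, Mbl2 (log2 -0.72) and the protease Masp2 (log2 -0.34), and 0 higher, whereas Fcna, which uses the same proteases, was higher. The Masp2 call was lost in 6 of 10 fits that left out 1 array, those without fasted Mcl1(L-/-) replicate 2 or 5 or without WT replicate 1, 2, 3 or 4 (highest adjusted p 0.0862).

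**Figure D5:**
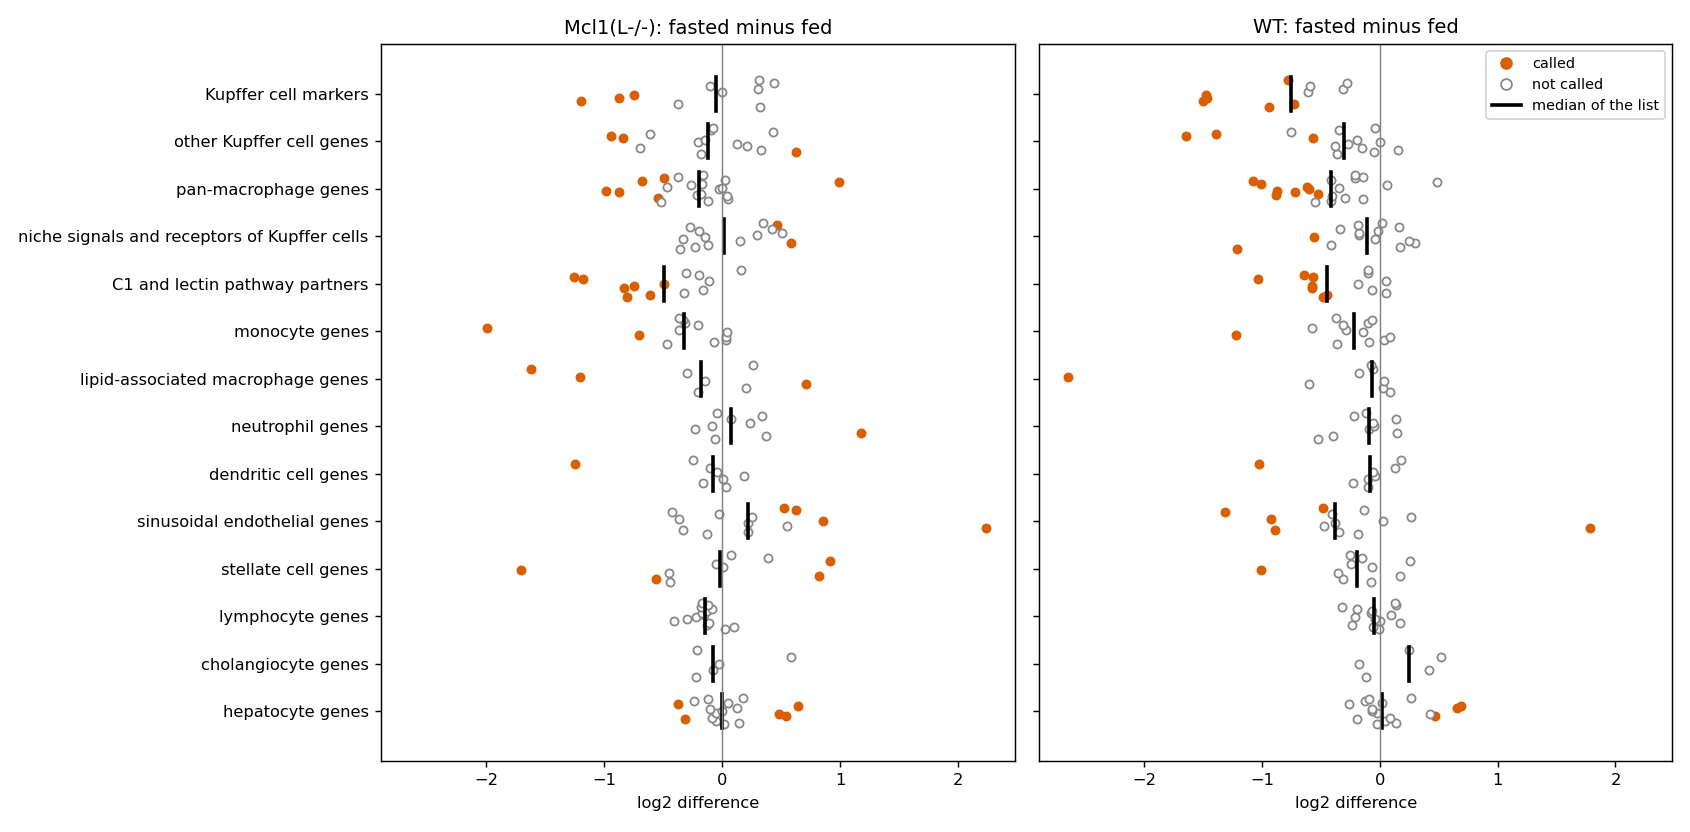
Log2 difference, fasted minus fed, of the genes of each list (rows) in Mcl1(L-/-) livers (left) and WT livers (right). Points are genes, filled where the adjusted p was under 0.05, and bars are list medians, which for the 10 Kupffer cell markers are -0.05 in Mcl1(L-/-) and -0.75 in WT livers.

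Lists of other cell types were measured the same way, and their part in the marker results was not tested. Summed over the genes of each list on the linear scale, then as log2, hepatocyte genes spanned 15.8 to 15.9 over the 20 arrays. Such a sum follows the brightest genes of a list and does not measure the share of a cell type. Among hepatocyte genes Alb had group means of 12.46 to 12.49, where the largest value on any array was 12.56. Of 17 hepatocyte genes fasting raised 3 and lowered 2 in Mcl1(L-/-) livers, beside 8.2% and 6.25% of all probe sets. It raised 3 and lowered 0 in WT livers, beside 3.1% and 3.68%. The brightest monocyte genes, which the sum of that list follows, were Plac8 and Nr4a1. Nr4a1 averaged 4.81 in fasted Mcl1(L-/-), 6.81 in fed Mcl1(L-/-), 5.01 in fasted WT and 5.59 in fed WT livers. Monocyte genes spanned 7.29 to 7.49 in fasted Mcl1(L-/-) livers, 7.54 to 8.97 in fed Mcl1(L-/-) livers, 7.05 to 7.31 in fasted WT livers and 7.62 to 8.52 in fed WT livers. Of these 12 genes fasting lowered 2 in Mcl1(L-/-) livers (Nr4a1, log2 -2.00, lost without fed Mcl1(L-/-) replicate 5 at an adjusted p of 0.051, and Plac8, log2 -0.71, lost without fasted Mcl1(L-/-) replicate 1 or 3 or fed Mcl1(L-/-) replicate 1 or 2 at an adjusted p up to 0.069) and 1 in WT livers (Plac8, log2 -1.22). As were 6 of the markers, Plac8 was higher in fasted Mcl1(L-/-) than in fasted WT livers (log2 0.78, adjusted p = 0.0287), a call lost when replicate 2 of either group, Mcl1(L-/-) replicate 4 or 5 or WT replicate 3 was left out (highest adjusted p 0.0864). Of the 12 monocyte genes 6 had a positive difference there (median -0.006, 1 called). The defining monocyte receptor Ccr2 was dim, with group means of 2.05 to 2.14 and a mean at the 8.7 percentile of all probe sets. Neutrophil genes spanned 5.97 to 6.94 in fasted Mcl1(L-/-) livers, 5.97 to 6.57 in fed Mcl1(L-/-) livers, 5.81 to 6.21 in fasted WT livers and 5.83 to 6.54 in fed WT livers. Retnlg was the only 1 of the 9 to be called, higher in fasted Mcl1(L-/-) than in fed Mcl1(L-/-) livers (log2 1.18) and than in fasted WT livers (log2 1.25), and each of these calls depended on single arrays. The call against fed Mcl1(L-/-) livers was lost without fasted replicate 1, 2 or 3 or fed replicate 3 or 4 (adjusted p up to 0.0976), and that against fasted WT livers without Mcl1(L-/-) replicate 1, 2 or 3 or any WT replicate other than 3 (highest adjusted p 0.137). Of 14 lymphocyte and 5 cholangiocyte genes 0 were called in any comparison by limma.

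Sinusoidal endothelial genes, whose cells line the vessels that Kupffer cells sit in, spanned 9.61 to 10.03 in fasted Mcl1(L-/-) livers, 9.36 to 9.77 in fed Mcl1(L-/-) livers, 9.40 to 9.89 in fasted WT livers and 9.83 to 10.12 in fed WT livers. Of 13 genes fasting raised 4 and lowered 0 in Mcl1(L-/-) livers and raised 1 and lowered 4 in WT livers. Like the markers, most of these genes had a positive interaction (12 of 13, median 0.56, 1 called), beside 10 of 10 markers with a median of 0.61 and 2 called. Among fasted livers 10 of the 13 had a positive difference, Mcl1(L-/-) minus WT (median 0.31, 1 called). Among fed livers all 13 had a negative one (median -0.31, 0 called), as had 3 of the 10 markers. The hyaluronan receptor Lyve1 rose in both genotypes (log2 2.24 in Mcl1(L-/-) and 1.79 in WT livers), whereas Dnase1l3 (log2 -1.31) and the Fc receptor Fcgr2b (log2 -0.92) fell in WT livers. Mrc1, the mannose receptor, which Kupffer cells also express, was the only gene outside the markers on these lists with a called interaction (log2 1.0, adjusted p = 0.022). It was lost without fasted WT replicate 2 (adjusted p = 0.0501) or fed WT replicate 5 (adjusted p = 0.0526). The fit without moderation also lost it (adjusted p = 0.0674). Of 10 stellate cell genes fasting raised 2 and lowered 2 in Mcl1(L-/-) livers and lowered 1 in WT livers, Col3a1 (log2 -1.01). Among 8 dendritic cell genes only H2-Ab1, an MHC class II chain, fell with fasting in Mcl1(L-/-) (log2 -1.25) and in WT livers (log2 -1.03). The other 7 were not called in either genotype, and the list medians were -0.075 in Mcl1(L-/-) and -0.079 in WT livers. Of 8 lipid-associated macrophage genes fasting raised 1 and lowered 2 in Mcl1(L-/-) livers (median -0.18). In WT livers it raised 0 and lowered 1 (median -0.06). Fabp5, a fatty acid binding protein, fell in both genotypes (log2 -1.20 in Mcl1(L-/-) and -2.65 in WT livers). Cd9 rose with fasting in Mcl1(L-/-) livers (log2 0.71, adjusted p = 0.0239), a call lost in 3 of 10 fits that left out 1 array. Cd9 was higher in fasted Mcl1(L-/-) than in fasted WT livers (log2 1.13). Mmp12, a macrophage elastase, was the only listed gene called between the fed genotypes, 8.81-fold higher in Mcl1(L-/-) livers (log2 3.14, adjusted p = 0.0108). That call was lost without moderation (adjusted p = 0.157) and with trend and robust moderation (adjusted p = 0.0888), and held in the other 16 of 18 alternatives.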

How the data were processed

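Total RNA was isolated from 20 mouse livers with Trizol and labelled with the GeneChip WT PLUS kit, per the labels' protocols. The values used are log2 signals in a table deposited by the authors. They were computed by RMA (robust multi-array average) and Partek 7.0, per the submitters' processing notes. Their log base is not stated and was taken as 2 because the values run from 1.34 to 12.56. RMA gives the arrays a common distribution and compresses differences of dim probe sets, so log2 differences can understate changes.

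Groups came from the labels. The model, with 1 mean for each group over all 20 arrays, was fitted with limma 3.58.1 in R 4.3.3 (lmFit, then eBayes with 6.95 prior degrees of freedom). P-values were adjusted by Benjamini-Hochberg over all 22206 probe sets, including 2634 without a symbol, and called under 0.05. SE and 95% intervals come from that fit, and the intervals are not adjusted. Means ± SD have n = 5 mice. The number of arrays limits the precision, with a median SE of 0.135 for differences and 0.19 for the interaction.

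The markers and the other lists were chosen with earlier results of these data known. Up to 2 called genes of each list, comparison and direction, those with the largest difference, could be named, as could Mcl1, Lyz1 and the symbols most correlated with the markers. Lyz1, Ccr2, Slc40a1 and the group means of Spi1, Nr4a1 and Alb were chosen after values were seen. Symbols came from the platform annotation, and promoters and gene order from RefSeq tables of GRCm38.p6. The steps were tested on simulated data, and matplotlib 3.10.9 (Python 3.11.15) drew the figures. Other scalings, models, filters and subsets of arrays were tried as alternatives.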

Additional observations from a re-analysis of the deposited data

Results flagged for a closer look

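The fasting differences of 2 markers differed between the genotypes by the interaction test. For Vsig4 the interaction was 1.26 on the log2 scale, from a fasting difference of 0.32 in Mcl1(L-/-) livers and -0.94 in WT livers. For Fcna it was 1.09, from 0.31 in Mcl1(L-/-) livers and -0.78 in WT livers. No array lay far enough from the others of its group to be singled out in the 40 combinations of marker and group (the widest gap was 0.669 of the group's range, against a critical value of 0.71).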

How the results depend on the processing

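Of 1020 values of the 10 markers under the alternatives, 943 kept their direction and their side of the threshold, 44 lost a call, 19 gained one and 14 changed sign, 0 of them called. The number of markers called for fasting was 2 to 5 in Mcl1(L-/-) livers and 6 to 8 in WT livers, and between the fed genotypes it was 0 throughout. The value of 5 came from leaving out fasted Mcl1(L-/-) replicates 3 and 4, an alternative chosen after seeing the data. In the fasted comparison of the genotypes 3 to 7 markers were called, with 3 when only those 2 groups were fitted. The probe sets called there numbered 1109, against 1989 without the 2 arrays, 399 with only the groups compared and 700 without moderation, and 497 to 1707 when 1 array was left out. Between the fed genotypes 8 were called, against 26 with array weights, 4 without moderation and 15 with trend and robust moderation, and 7 to 16 with 1 array left out. For the interaction 30 were called, against 55 with array weights, 765 without the 2 arrays, 56 with dim probe sets left out (9860 kept, with all 10 markers, Folr2 through its fed arrays) and 3 without moderation, and 9 to 331 with 1 array left out. The markers called for the interaction numbered 2, against 0 without moderation, 1 after quantile normalization and 0 to 2 with 1 array left out. The cause of these shifts was not tested.

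The sign changes were those of C1qa for fasting in Mcl1(L-/-) livers (-0.034 after quantile normalization, and -0.129 to 0.14 with 1 array left out) and of C1qc there (-0.218 to 0.069). Between the fed genotypes they were those of C1qa (-0.044 to 0.177), C1qb (-0.044 to 0.173), Marco (-0.107 to 0.271) and Vsig4 (-0.087 to 0.016).

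Whether the replicate numbers pair the samples is not stated in the labels. Of 20 same-numbered pairs 1 had deviations correlated above 0.1 (-0.144 to 0.166). Pairs with different numbers were not compared, so these values cannot show whether mice were matched by number. With the replicate number as a block 1 marker was called for the interaction, and Fcna was not (adjusted p = 0.0541). The other named list genes gave 1124 values, of which 1003 kept their call, 121 lost it and 0 changed sign. These genes were named for being called with the largest differences, so no call could be gained and a kept sign was favoured. Fitting every probe set of a marker could give nothing different, since each has 1.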
